A study of Drosophila melanogaster with 6 samples.

Results

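A stretch of chromosome arm 3R holds 8 protein-coding genes that the authors listed together as upregulated with the oncohistone H3K27M. In map order they begin with Leash and CG6621, go on with Tengl4 and side-VI, then CG43449, and end with SdhCL, Ugt35C1 and mAcon2. They lie between 10885540 and 11139742 on Release 6 (dm6), a span of 254.2 kb. The 8 genes were chosen by their presence on the authors' list and their position next to each other, so neither property is a finding here. With them are described the 6 long non-coding RNA genes annotated between them. The whole list held 148 of 17684 annotated genes on the 6 chromosome arms analysed.

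The study profiled trimethylated histone H3 lysine 27 (H3K27me3) by CUT&RUN, in which an antibody guides a nuclease to cut out marked chromatin, in wing imaginal discs of third-instar larvae. The first genotype was Act5C-GAL4, alphaTub84B-GAL80ts/UASt-H3 K27M, and its control was Act5C-GAL4, alphaTub84B-GAL80ts/UASt-H3 K27R. Each genotype had 2 H3K27me3 libraries and 1 IgG library, with 20 discs per replicate. In both genotypes the ubiquitous Act5C driver was held off by temperature-sensitive GAL80 at 25 °C until 44 h after egg laying, and the histone was then expressed for 72 h at 32 °C until larvae were staged at 116 to 119 h. The values used were the authors' 148 upregulated genes, as intervals with a strand, and their 1709 H3K27me3 peaks of H3K27R discs, as 1 list for both replicates. Neither holds a value per library or an expression level, so read depth is unknown, no replicate error can be given, and the labelled tissue could not be checked against marker genes. A gene off the list may be unchanged, lower, or not measurable, since the list does not tell these apart. The sources used here do not say how the list was called or against which group.

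H3K27me3 is written by Polycomb repressive complex 2 and marks genes held silent in a cell type, such as fate regulators of other tissues. Histone H3 with methionine at lysine 27 is known to block this complex, whereas arginine at that position cannot be methylated but does not block the complex in the same way. Several genes of the 3R stretch are duplicates of genes for mitochondrial enzymes or nucleases, and such duplicates in Drosophila are known mainly from the testis.

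Of the 15 genes annotated in the stretch, 14 were on the upregulated list, against 0.837% of all annotated genes. They comprised 8 of the 9 protein-coding genes, where the share of all protein-coding genes was 0.941%, and all 6 long non-coding RNA genes. The protein-coding count follows from the choice of members. The non-coding genes were taken in by position alone, yet they lie between genes chosen for being listed. Ak3, which encodes an adenylate kinase, was the 1 gene of the stretch that was not listed.

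**Figure D1:**
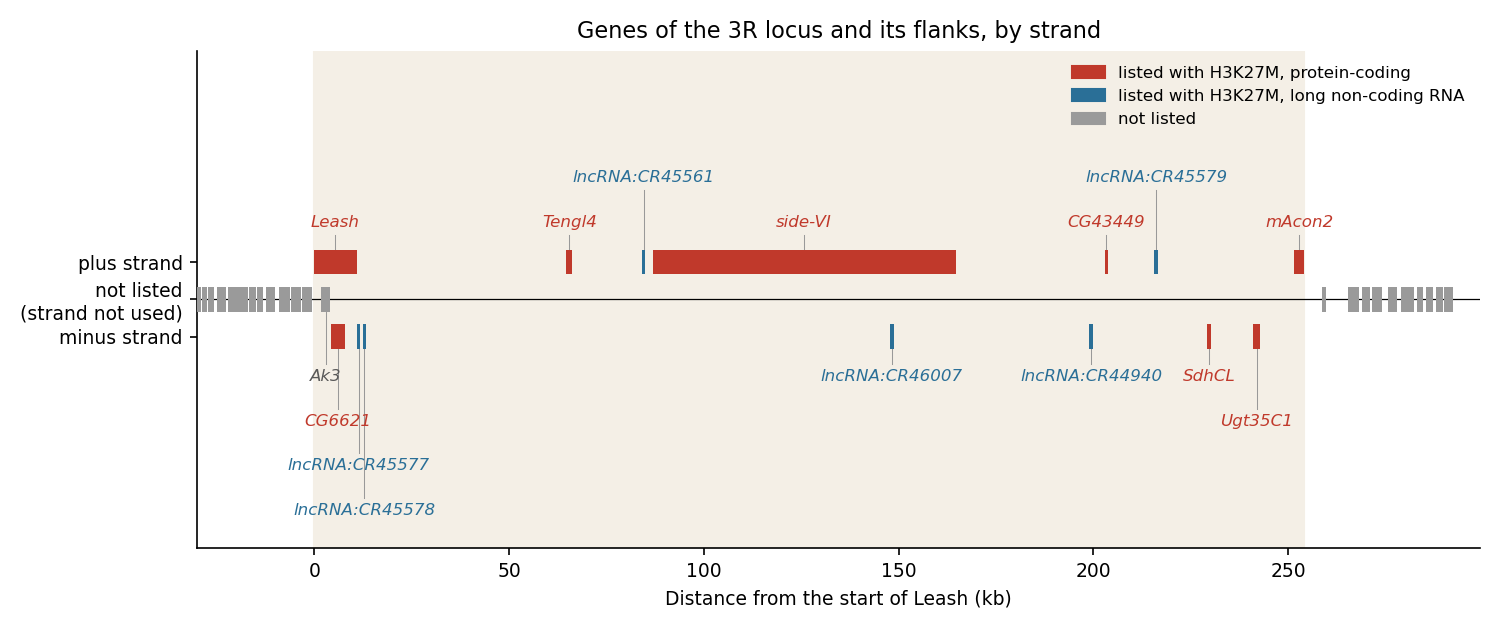
Gene spans by distance from the start of Leash in kb, on the plus strand (upper row) and minus strand (lower row) for listed genes, and on the middle line for genes not listed. Red marks listed protein-coding genes, blue listed long non-coding RNA genes and grey genes not listed, and the shaded area is the 254.2 kb stretch. All 14 listed genes lie inside the shading, where Ak3 is the only grey gene.

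The stretch begins with a group of overlapping genes. Leash, a member of the alpha-arrestin family reported to promote breakdown of the Hippo pathway co-activator Yorkie, spans 10.88 kb on the plus strand (10885540 to 10896418). Ak3 (10887345 to 10889588) and CG6621 (10889768 to 10893531) lie wholly within the span of Leash. CG6621, for which the gene table gives the synonym TTC14, is on the minus strand and so is antisense to Leash. Reads from the 2 genes could be assigned to either if strand was not used in counting, and the sources used here do not say whether it was. Of the 3 overlapping genes, Leash and CG6621 were listed and Ak3 was not. Just past the end of Leash, lncRNA:CR45577 and lncRNA:CR45578 follow after gaps of 60 and 803 bp, both on the minus strand and both listed.

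The middle of the stretch is sparse. After lncRNA:CR45578 comes a gap of 51.7 kb with no annotated gene, the widest in the stretch. It ends at Tengl4 (10950284 to 10951797, plus strand), a gene of the endonuclease G-like family named for its expression in testis. A listed non-coding gene, lncRNA:CR45561, lies 17.9 kb further on. It is followed after 2.1 kb by side-VI, an immunoglobulin-superfamily cell-surface protein gene of the sidestep family, whose founding member guides motor axons. At 77.8 kb (10972381 to 11050175, plus strand) side-VI was the longest member. The listed gene lncRNA:CR46007 lies on the opposite strand within its span (11033380 to 11034203), so the same limit on strand applies to this pair.

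The far end holds the small enzyme genes. A gap of 34.4 kb separates side-VI from lncRNA:CR44940 (11084528 to 11085488, minus strand). CG43449 (11088420 to 11089356, plus strand) starts 2.93 kb from the start site of lncRNA:CR44940, in the opposite direction. CG43449 is annotated as protein-coding, but the gene table also gives it a lincRNA synonym, as it does for its neighbours lncRNA:CR44940 and lncRNA:CR45579. SdhCL (11114671 to 11115706, minus strand) is a duplicate of SdhC, the gene of a membrane subunit of succinate dehydrogenase. Ugt35C1 (11126597 to 11128328, minus strand) encodes a UDP-glycosyltransferase, an enzyme class that attaches sugars to small molecules. The last member, mAcon2 (11137177 to 11139742, plus strand), is a duplicate of mAcon1, the mitochondrial aconitase gene of the citric acid cycle. Each of these last genes is separated from the one before it by 8.8 to 13.0 kb.

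The listed genes pointed in both directions in equal number. Of the 14, 7 were on the plus strand and 7 on the minus strand, compared with 81 and 67 over the whole list. Among the members 5 were on the plus and 3 on the minus strand, and among the non-coding genes 2 and 4. In order of start site, 7 of 13 neighbouring pairs had the same strand, 3 were divergent and 3 convergent. Distances between neighbouring start sites ran from 1.4 kb to 61.82 kb, with a median of 12.6 kb. The listed genes thus did not form an array on 1 strand.

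Most members had spans like those of other genes and few annotated transcripts. They had a median span of 2.15 kb (0.937 to 77.8 kb), the non-coding genes 0.657 kb (0.505 to 0.961 kb), other listed protein-coding genes 3.41 kb, and protein-coding genes not listed 2.16 kb. A single RefSeq transcript was annotated for 5 of 8 members (62.5%) and for all 6 non-coding genes. That was the case for 53 of 123 other listed protein-coding genes (43.1%) and 49.6% of those not listed. Ak3 had 4 transcripts.

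Neighbouring genes on both sides of the stretch were not listed. CG14696 ends 538 bp before Leash and was not listed. On the other side CheA86a, of a family of genes linked to chemosensory organs, begins 4603 bp after mAcon2 and was not listed. None of the 5 nearest protein-coding genes on either side was listed: CG4596, Sodh2, CG14695, Tpc1 and CG14696 before the stretch, and CheA86a, Ugt302K1, Ugt302E1, Ugt302C1 and CG4757 after it. The nearest listed gene before the stretch was ATPsynepsilonL, 763.2 kb away with 100 unlisted genes between. After the stretch it was sals, a sarcomere length gene, 297.8 kb away with 63 unlisted genes between. The labels give neither the insertion site of the transgenes nor the strain background, so whether the 2 genotypes differ in sequence in this stretch was not tested, and "upregulated with H3K27M" is used here only as the name of the list.

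The stretch was poor in genes compared with its surroundings. Its 15 genes gave 59 genes per Mb, against 212 in the equal length before it, 189 in the equal length after it, and 132 over the arm. Only genes lying wholly inside a region were counted, for density and for coverage. Their spans covered 39.3% of the stretch, 60.4% of the flank before, 48.3% of the flank after, and 72.8% of the arm. No gene crosses an end of the stretch. The outer ends of the flanks cut through hth (before) and pros (after), whose parts inside the flanks were left out. Coverage of the flanks is therefore understated, and is not measured like that of the arm. Listed genes numbered 14 in the stretch and 0 in each flank, among 54 and 48 annotated genes. Since the stretch was chosen as a run of listed genes and ends where they stop, these counts of listed genes restate the choice.

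All of the 14 listed genes lay far from H3K27me3 peaks of H3K27R discs. None of the 8 members overlapped a peak, where 7.22% of all protein-coding genes did, and none of the 6 non-coding genes did, where 7.67% of all annotated genes did. At these background shares most sets of 8 or 6 genes would hold few or none, so the counts of 0 say little by themselves. The share of 7.67% covers genes of all types, and that of long non-coding RNA genes alone is not given here. The peak list reaches down to a −log10 q-value of 1.05, so weak calls are included.

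Distances to the nearest peak were alike among the members because they share 1 interval without peaks. On the side towards the first peak, Leash lay 210.9 kb away, CG6621 215.1 kb, Tengl4 275.7 kb and side-VI 297.8 kb. Towards the peak on the other side, CG43449 lay 264.3 kb away, SdhCL 237.9 kb, Ugt35C1 225.3 kb and mAcon2 213.9 kb. The non-coding genes ranged from 222 to 319 kb, with lncRNA:CR46007 the farthest at 319.4 kb. The distances rise from both ends to the middle of the stretch, since the stretch sits near the centre of the interval.

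Members were farther from peaks than most other genes. Their median distance was 232 kb (211 to 298 kb). The 108 other listed protein-coding genes without a peak had a median of 109 kb, and the 12801 protein-coding genes neither listed nor over a peak 75.7 kb. Of these other listed genes 17 (15.7%) lay at least as far as Leash, the nearest member, and of the unlisted genes 15.8%. Unlisted genes of the same interval were similarly far. Ak3 lay 212.7 kb from a peak, and the neighbours CG14696 and CheA86a 207812 and 208416 bp. No test was made, because the 8 distances come from 1 interval and are not independent.

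**Figure D2:**
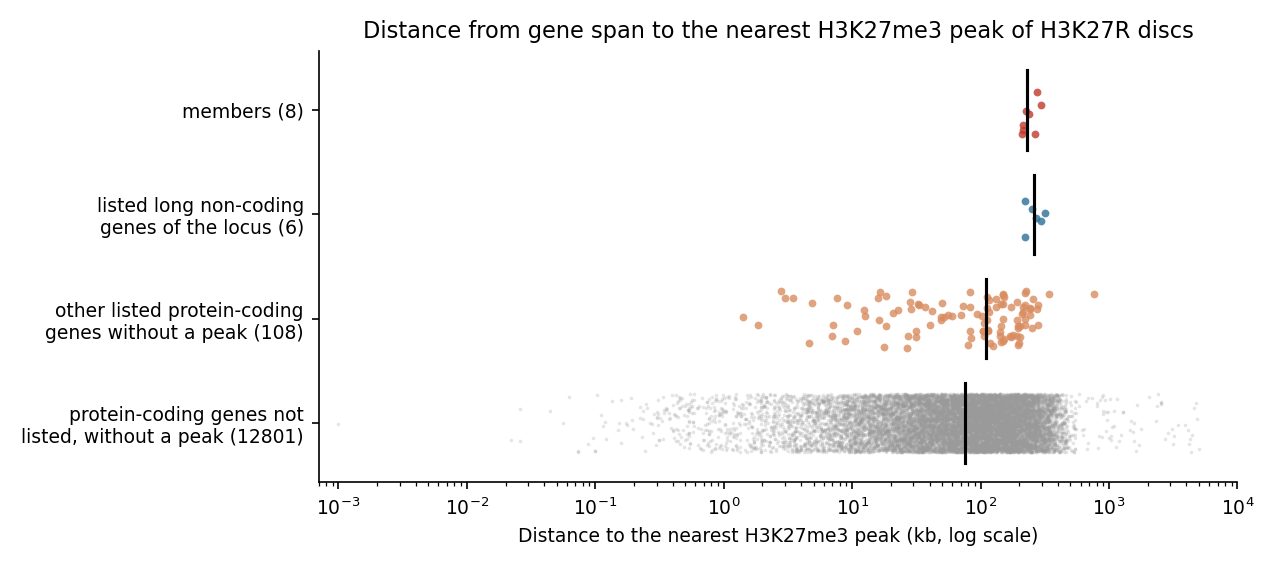
Distance from each gene span to the nearest H3K27me3 peak in kb (log scale), with 1 point per gene that overlaps no peak, a black line at each group's median, genes touching a peak drawn at 1 bp, and points spread vertically for visibility only. The 8 members (median 232 kb) and the 6 long non-coding genes (median 260 kb) occupy a narrow range, while the other groups spread over several orders of magnitude.

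The interval without peaks around the stretch was among the longer ones, though not the longest, and it was bounded by peaks near regulators of development. It measured 679 kb and ranked 33rd in length of 1703 intervals between neighbouring peaks, and 9th of 385 on 3R. The median interval was 3.393 kb over all arms and 4.109 kb on 3R. Before it lay a peak of 26 kb (3R 10648584 to 10674620) with the authors' fold enrichment of 4.95, which overlapped no protein-coding gene. With gaps of up to 5000 bp joined, this peak belonged to a 64.3 kb domain of 7 peaks that overlapped hth, a homeodomain gene of the proximal wing. After the interval lay a peak of 25.5 kb (3R 11353652 to 11379196) over pros, a homeodomain gene of neural fate, with the authors' fold enrichment of 13.3. Neither hth nor pros was on the upregulated list.

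Within this interval only the stretch held listed genes. The interval contained 114 annotated genes, of which 14 (12.3%) were listed. The 53 genes between the first peak and Leash and the 46 genes between mAcon2 and the peak over pros included no listed gene. All of these 99 genes are likewise free of peaks, so the peak list does not separate listed from unlisted genes there. The 32 longer intervals held at most 4 listed genes each, 30 of 3801 genes in all (0.789%). Over the other 1702 intervals the highest number was 6 and the share 0.722%. Since the interval was taken for holding the stretch, its higher count and share of listed genes restate the choice.

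**Figure D3:**
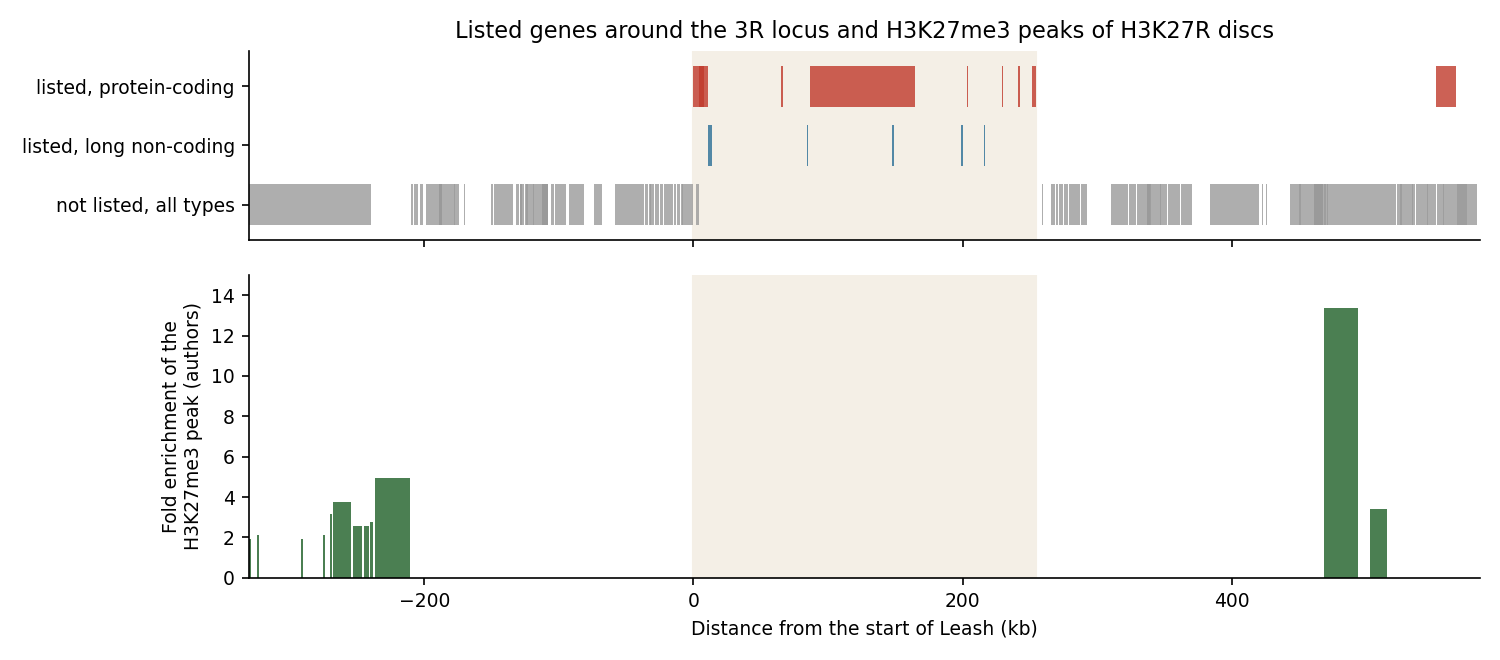
The upper panel shows spans of listed protein-coding genes (red), listed long non-coding genes (blue) and genes not listed (grey), and the lower panel the authors' fold enrichment of each H3K27me3 peak of H3K27R discs, both by distance from the start of Leash in kb. The shaded 254.2 kb stretch holds all 14 listed genes of the interval, and the nearest peaks stand 210.9 kb before and 213.9 kb after it, at 4.95-fold and 13.3-fold.

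The density of listed genes, on which the stretch was chosen, is given here as a description. Windows of the length of the stretch, begun at every annotated gene, held at most 6 listed genes when they did not touch it, compared with 14 within it. That window lay on 3L and held skl, CG18234, CG18233, CG18231, CG32201 and CG32199 among 30 genes. No listed gene was present in 78% of windows elsewhere. In the order of protein-coding genes 7 members, from CG6621 to mAcon2, were neighbours, and Leash was set apart from them by Ak3. In the order of all annotated genes the run comprised 13 genes, and the next longest run 5.

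The next longest run, on 3L (18603425 to 18614004), had a different layout. It placed its 5 genes in 10.6 kb, all on the plus strand and with no other gene annotated between them. The 3R stretch covered 254.2 kb and both strands, with 6 non-coding genes annotated between its members. The 5 genes of the 3L run also lay far from peaks, at 193 to 202 kb. The 2 runs differ in these counts, for which no test was made.

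**Figure D4:**
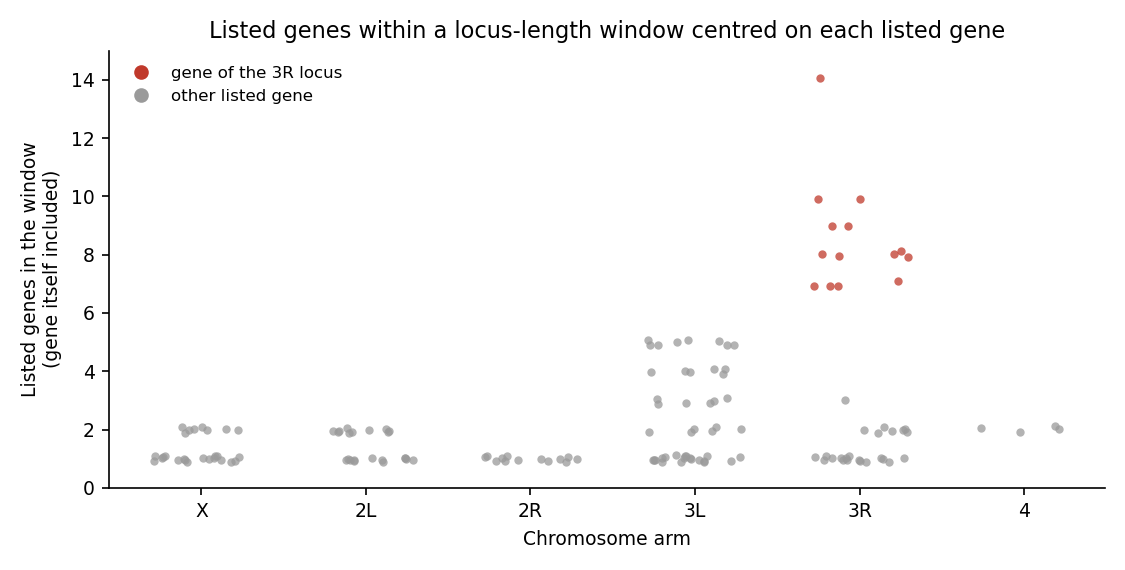
For each listed gene, the number of listed genes, itself included, that overlap a window of 254.2 kb centred on it, by chromosome arm. Red points are the 14 genes of the 3R locus, which had 7 to 14 listed genes in the window. Grey points are the 134 other listed genes, which had 1 to 5, and 78 of them had no other listed gene. Points are spread slightly for visibility.

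The long non-coding RNA genes of the stretch made up most of those on the list. Of 1959 annotated long non-coding RNA genes 11 were listed, a share of 0.562%. The stretch held 6 of the 11 (54.5%). Elsewhere 5 of 1953 were listed, or 0.256%. On 3R the stretch held 6 of 7 listed long non-coding RNA genes and 14 of 38 listed genes of any type (36.8%). Without the stretch the share of listed genes on 3R was 0.57%, against 0.899% with it. Since the stretch was chosen as a run of listed genes, these counts and shares restate the choice. The non-coding genes were not chosen for being listed, but they lie between genes that were.

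Gene families related to the members by name or function held 1 listed gene once the members were set aside. The lists, taken by symbol and not always complete, comprised relatives of 6 members, the beat genes and duplicates of respiratory chain genes. Of their 109 other genes, 1 was listed (0.917%), close to the 0.941% of all protein-coding genes, so its rarity is not a result about these families. A count of 1 is also too small to show that the families are like genes in general. The listed gene was ATPsynepsilonL, a duplicate of an ATP synthase subunit gene and also the nearest listed gene before the stretch. A peak was overlapped by 10 of the 109 genes (9.17%), close to the 7.22% of all protein-coding genes.

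The citric acid cycle and respiratory chain lists gave 3 listed genes, 2 of them members. Of 26 genes of the citric acid cycle and aconitase relatives, only SdhCL and mAcon2 were listed. The parent gene SdhC, which encodes the general subunit, lies only 93.2 kb from SdhCL, outside the stretch, and was not listed. SdhA, SdhB and SdhD, the other subunits of the complex, and mAcon1 were not listed either. With 0.941% of all protein-coding genes listed, the absence of these single genes says little by itself. The duplicate SdhAL was covered by a peak over 100% of its span and was not listed, and SdhBL was 285.6 kb from a peak and not listed. Of 25 respiratory chain genes with names ending in L or in L and a digit, most of them duplicates of subunit genes, SdhCL and ATPsynepsilonL were listed, and SdhAL, ND-51L2 and ND-20L overlapped peaks.

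The sets of relatives taken by symbol for Ugt35C1, Tengl4, side-VI and Leash each had 1 listed gene, the member itself. Of 35 Ugt genes only Ugt35C1 was listed. A cluster of 9 other Ugt genes begins 11.3 kb after mAcon2 and ends 38.2 kb after it, and none of the 9 was listed. With 0.941% of all protein-coding genes listed, most sets of the sizes given here would hold none, so such counts say little. Elsewhere Ugt37B1, Ugt36F1, Ugt37C1 and Ugt49B2 overlapped peaks and were not listed. They were 11.8% of the 34 other Ugt genes, against 7.22% of all protein-coding genes. Of 5 EndoG family genes Tengl4 was the 1 listed, at 275.7 kb from a peak. EndoG, on 2R, lay 259.9 kb from a peak. Tengl1, Tengl2 and Tengl3, which are neighbours on 2L, lay 107 to 109.3 kb from a peak. Of 8 sidestep family genes side-VI was the 1 listed, and side-V overlapped a peak over 4.47% of its span. None of the 14 beat genes, whose products bind sidestep proteins, was listed. The arrestin set was limited to Leash, Vdup1, krz, Arr1 and Arr2, and other relatives of Leash were not looked at. Of these 5 genes Leash was listed and Arr2, a photoreceptor arrestin, overlapped a peak over 85.1% of its span.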

How the data were processed

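The authors' deposited peak list, which has no header, gives for each peak a start and end, a score (not used here), a fold enrichment ratio over the peak caller's background, a −log10 p-value (not used here) and a −log10 q-value. The deposited list of upregulated genes gives intervals and strands, with a score of 0 throughout. The submitters' processing notes name Bowtie2, MACS2 and dm6, without versions. The sources used here give neither thresholds nor background libraries.

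Listed intervals were matched to the RefSeq gene table of Release 6, and each of the 148 had the same start and end as 1 gene. Strands are known for listed genes only. Overlap required 1 bp, and domains joined peaks across gaps of up to 5000 bp. Coordinates are 1-based. Distances are bases between a gene span and a peak. Family lists were taken by symbol, and 1 symbol did not match. The members and lists were chosen with earlier results of these data known. Named genes are the members, all genes between them, the 5 protein-coding genes on either side, the bounding peaks, listed or peak-covered family genes, and the next longest run. Other family genes named were chosen after their values were seen. No test was made, since neither file holds replicates. The distance and run calculations were tested on simulated data. Python 3.11.15, pandas 2.3.3 and matplotlib 3.10.9 were used. Protein and promoter sequences were not analysed here.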

Additional observations from a re-analysis of the deposited data

How the results depend on the processing

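No paired analysis was possible because the lists hold no values of single libraries, and none could be left in or out. Searches for paralogs by sequence and for promoter motifs were not run, for want of sequences. Of 18 alternative values, 16 stayed within 1.5 times of the reported one. The 14 listed genes became 8 when protein-coding genes alone were counted, and the run of 7 became 13 when all annotated genes set the order. Both follow from leaving out or adding the non-coding genes. No member came within 20000 bp of a peak, a setting that could change nothing with the nearest member 210.9 kb away. Peaks were also limited to a −log10 q-value of 10 or more, a fold enrichment no lower than the median, or a width of at least 1000 bp. The median distance of 232 kb and the interval of 679 kb were identical under each limit. That outcome was fixed, because the 2 bounding peaks set these values and pass every limit. Their −log10 q-values are 22.6 and 121, their fold enrichments 4.95 and 13.3, and their widths 26 and 25.5 kb. These unchanged values therefore do not show robustness. The limit on width, and windows of 100000 and 500000 bp, were added after seeing the data. Those windows held at most 5 and 6 listed genes elsewhere, and at most 6 and 14 where they met the stretch, so at 100000 bp the 3R stretch and the 3L run differed by a single gene. Depth is unknown for both lists.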

Other observations

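The 5 listed long non-coding RNA genes outside the 3R stretch were scattered and did not sit in runs with each other. They were lncRNA:CR43989 on 3L, lncRNA:mimi on 3R, and lncRNA:CR40469, lncRNA:CR46494 and lncRNA:CR46472 on X. Their distances to the nearest H3K27me3 peak of H3K27R discs were 14.9, 262.8, 68.0, 68.5 and 448.4 kb, in that order. The 6 in the 3R stretch lay at 222 to 319 kb, within that range. None of the 5 overlapped a peak, where 7.67% of all annotated genes, of all types, did, so this count says little by itself.

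The genes known as binding partners of Side-VI, the 3 beat-V genes, lie on the same arm as side-VI but outside the stretch. Beat-V genes were not listed, and beat-Vc, beat-Va and beat-Vb lay 225.1, 198.0 and 111.6 kb from the nearest peak. Their distances to the stretch were 1606.3, 1700.8 and 1776.3 kb.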
